A study of Mus musculus with 40 samples.

Results

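Immediate early genes are genes whose transcription starts within minutes of a stimulus without new protein synthesis. Grouped here under that name are 34 genes known from neurons and other cells as activity-induced, and whether each meets the definition was not tested. The 34 were followed in RNA of nuclei sorted by an astrocyte reporter from the primary visual cortex (V1) of the mouse. They were taken by gene symbol from a list that was drawn up with earlier results of these data known, and all 34 were present among the 25239 genes of the count table. All 34 also passed the filter on low counts that left 17106 genes. By role they fell into 8 genes of the AP-1 and basic leucine zipper family (Fos, Fosb, Fosl2, Jun, Junb, Jund, Atf3 and Maff), 10 zinc finger and other transcription factors (Egr1, Egr2, Egr3, Egr4, Klf2, Klf4, Npas4, Nr4a1, Nr4a2 and Nr4a3), 10 genes of signal feedback and growth arrest (Dusp1, Dusp4, Dusp5, Dusp6, Sik1, Ier2, Ier5, Btg2, Gadd45b and Gadd45g) and 6 effectors (Arc, Homer1, Bdnf, Nptx2, Ptgs2 and Vgf).

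The 40 libraries covered postnatal days 14, 21 and 28 (P14, P21 and P28), with mice kept in a normal light and dark cycle (normally reared, NR) or in darkness until collection (dark reared, DR). All animals carried floxed alleles of the glucocorticoid receptor gene Nr3c1 (GR fl/fl) and had received, around birth, an AAV2/5 virus in which the GfaABC1D promoter, a short promoter derived from human GFAP, drove EGFP tethered to the nuclear envelope. In GR-KO mice the virus also carried Cre, and in GR-Con mice an inactive ΔCre. The 12 groups were therefore NR GR-KO, DR GR-KO, NR GR-Con and DR GR-Con at each age, with 3 or 4 libraries each. A library came from 80000 sorted GFP+ nuclei of 1 male and 1 female mouse pooled, so it is a separate pool of animals but does not resolve the sexes, and the group shows the result of virus-transduced nuclei, not of a germline deletion. All mice were collected under red light in the same window of the circadian day, at the start of the dark phase.

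Light entering the eye drives calcium entry and kinase signalling in cortical cells, and the transcription factors CREB, SRF and MEF2, already present in the nucleus, switch on the first genes. Their products fall into a second layer of transcription factors (the FOS, EGR and NR4A proteins), phosphatases and adaptors that end the signal (the DUSP proteins), and effectors that act at the synapse (ARC, HOMER1, BDNF). In visual cortex they are a common readout of visual experience in neurons, and FOS and EGR1 are also made by stimulated astrocytes.

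The regions just upstream of 5 called members are shown, chosen because they carry the sites through which such genes are classically switched on. Each is the 250 bases before a transcript start that RefSeq annotates, read 5′ to 3′ on the gene's own strand, on GRCm38.p6. For Fos and Dusp1 this start is the outer end of the gene body, while those of Nr4a1, Nr4a3 and Egr2 lie 12944, 227 and 3400 bases inside it. Capitals mark the cAMP response element (CRE, TGACGTCA), its half-site (TGACG, or CGTCA on the other strand) and the CArG box, the site of SRF.
Fos, chr12:85473640-85473889, plus strand: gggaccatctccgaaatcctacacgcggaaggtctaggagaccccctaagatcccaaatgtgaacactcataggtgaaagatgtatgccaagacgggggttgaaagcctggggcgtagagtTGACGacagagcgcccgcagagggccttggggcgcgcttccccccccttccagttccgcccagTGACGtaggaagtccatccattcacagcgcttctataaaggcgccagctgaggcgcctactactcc
Nr4a1, chr15:101266596-101266845, plus strand: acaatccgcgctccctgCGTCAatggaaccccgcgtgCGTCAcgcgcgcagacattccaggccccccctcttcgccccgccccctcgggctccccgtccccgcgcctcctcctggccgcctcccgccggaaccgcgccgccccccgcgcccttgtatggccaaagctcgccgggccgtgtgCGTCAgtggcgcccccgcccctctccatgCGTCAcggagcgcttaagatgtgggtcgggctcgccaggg
Nr4a3, chr4:48045055-48045304, plus strand: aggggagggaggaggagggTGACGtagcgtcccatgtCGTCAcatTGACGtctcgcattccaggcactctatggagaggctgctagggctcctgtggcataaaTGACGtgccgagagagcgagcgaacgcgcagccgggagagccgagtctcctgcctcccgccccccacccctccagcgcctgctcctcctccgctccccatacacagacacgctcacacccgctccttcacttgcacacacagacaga
Dusp1, chr17:26508473-26508722, minus strand: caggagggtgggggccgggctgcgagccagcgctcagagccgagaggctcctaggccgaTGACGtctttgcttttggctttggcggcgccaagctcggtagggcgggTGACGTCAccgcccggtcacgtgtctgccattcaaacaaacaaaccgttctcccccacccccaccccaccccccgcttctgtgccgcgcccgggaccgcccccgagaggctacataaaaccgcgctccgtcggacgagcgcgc
Egr2, chr10:67537619-67537868, plus strand, 1 of several annotated starts with a window: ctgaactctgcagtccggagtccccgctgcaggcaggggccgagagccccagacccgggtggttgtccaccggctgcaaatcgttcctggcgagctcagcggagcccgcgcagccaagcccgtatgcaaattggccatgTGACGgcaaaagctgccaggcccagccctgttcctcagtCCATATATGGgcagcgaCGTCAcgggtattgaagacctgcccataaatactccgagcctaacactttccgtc
The Fos sequence held 2 half-sites, that of Nr4a1 4, that of Nr4a3 4, and that of Egr2 2 beside a CArG box. The Dusp1 sequence held 1 full CRE, and 3 matches to the half-site of which 2 were the CRE itself read on both strands. Other called members varied. The same 250 bases held 4 half-sites in Nr4a2, and 2 CArG boxes beside 1 half-site in Dusp5. Those of Fosl2 held 0 of these sites, and Bdnf had 1 half-site in only 1 of several windows.

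Promoter windows of 300 bases (250 before and 50 after an annotated start) were matched for 26 of the 34 members, for 21 of them with a start at the outer end of the gene body, and motifs were searched on both strands. Egr1, Egr3, Dusp4, Sik1, Ier2, Arc, Nptx2 and Vgf were not matched. The half-site TGACG was in the windows of 19 members (73.1%), against 23% of all 27025 genes with a window. The full CRE was in those of Maff, Dusp1 and Btg2 (11.5%, against 2.03% of all genes), and every full CRE is also counted as a half-site. The EGR motif GCGNGGGCG was in 9 windows (34.6%, against 6.27%), the CArG box in those of Egr2 and Dusp5 (7.69%, against 1.81%) and TATAAA in 5 (19.2%, against 15.7%). The AP-1 motif TGANTCA was found in Bdnf alone (3.85%, against 8.97%), and the glucocorticoid response element in Jund alone (3.85%, against 0.537%). These matches describe letters in the windows and not occupied sites.

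Values are given as CPM, read counts divided by the TMM-scaled library size and set to a common total, and reads over exons and introns were counted together. Library sizes ran from 17240294 to 49221787 counts. All 15 astrocyte markers were counted in every library, with a summed level of 12511 to 19524 CPM and Slc1a2, the glutamate transporter GLT-1, alone at 6406 to 11985 CPM. Neuronal RNA was also present, since none of 14 neuron markers was at 0 in any library and their summed level was 2212 to 4398 CPM, with Camk2a at 427 to 1414 CPM and Rbfox3, which encodes NeuN, at 84.8 to 228 CPM. The oligodendrocyte precursor marker Gpr17 and the microglial marker P2ry12 were at 0 in all 40 libraries. In such bulk nuclei, a change in the number of cells of a type and a change in RNA per cell cannot be told apart. Hif3a, a gene induced by glucocorticoids, was lower in GR-KO in each of the 6 combinations of age and rearing, by 2.46 to 3.12 on the log2 scale. Nr3c1 itself was counted over the whole gene body, so its counts do not check the deletion. They were called lower in GR-KO in none of the 6 and higher in P21 DR mice (log2 0.26, edgeR adjusted p = 0.0473), and in NR mice the GR-KO libraries lay above the GR-Con libraries at each age without passing (0.17, 0.27 and 0.29, adjusted p = 0.707, 0.0842 and 0.063).

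Per kilobase of gene body, Egr1 and Arc had the highest mean levels of the 34 (24.5 and 23.8 CPM per kb), followed by Jun (12.5 CPM per kb) and Jund (12.4 CPM per kb). Atf3 (0.0203 CPM per kb), Maff (0.126 CPM per kb) and Bdnf (0.217 CPM per kb) had the lowest. Atf3, a stress-induced leucine zipper factor, was at 0 in 2 libraries and reached only 50 counts, so its values carry little information. On mm10 the gene body of Egr2 shared 22.2% of its length with the annotated gene Gm32255 and that of Dusp6 14.7% with Gm34921. Reads of such overlapping genes cannot be told apart without strand, and no source read here states whether strand was used in counting.

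The first comparison asked how the 34 genes differed between NR and DR mice. At P28 most of them were higher in NR libraries. Over the mean of both genotypes 28 of the 34 passed the test at an adjusted p below 0.05 (edgeR quasi-likelihood, Benjamini-Hochberg over 17106 genes), all of them higher in NR, against 1.66% of all genes tested. The 34 log2 fold changes were all positive, from 0.18 to 2.31, with a median of 1.19 against 0.00243 over all genes tested. By role, 5 of 8 AP-1 and leucine zipper genes were called (median log2 fold change 1.52), 9 of 10 further transcription factors (1.45), 8 of 10 feedback and growth arrest genes (0.99) and 6 of 6 effectors (1.23).

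**Figure D1:**
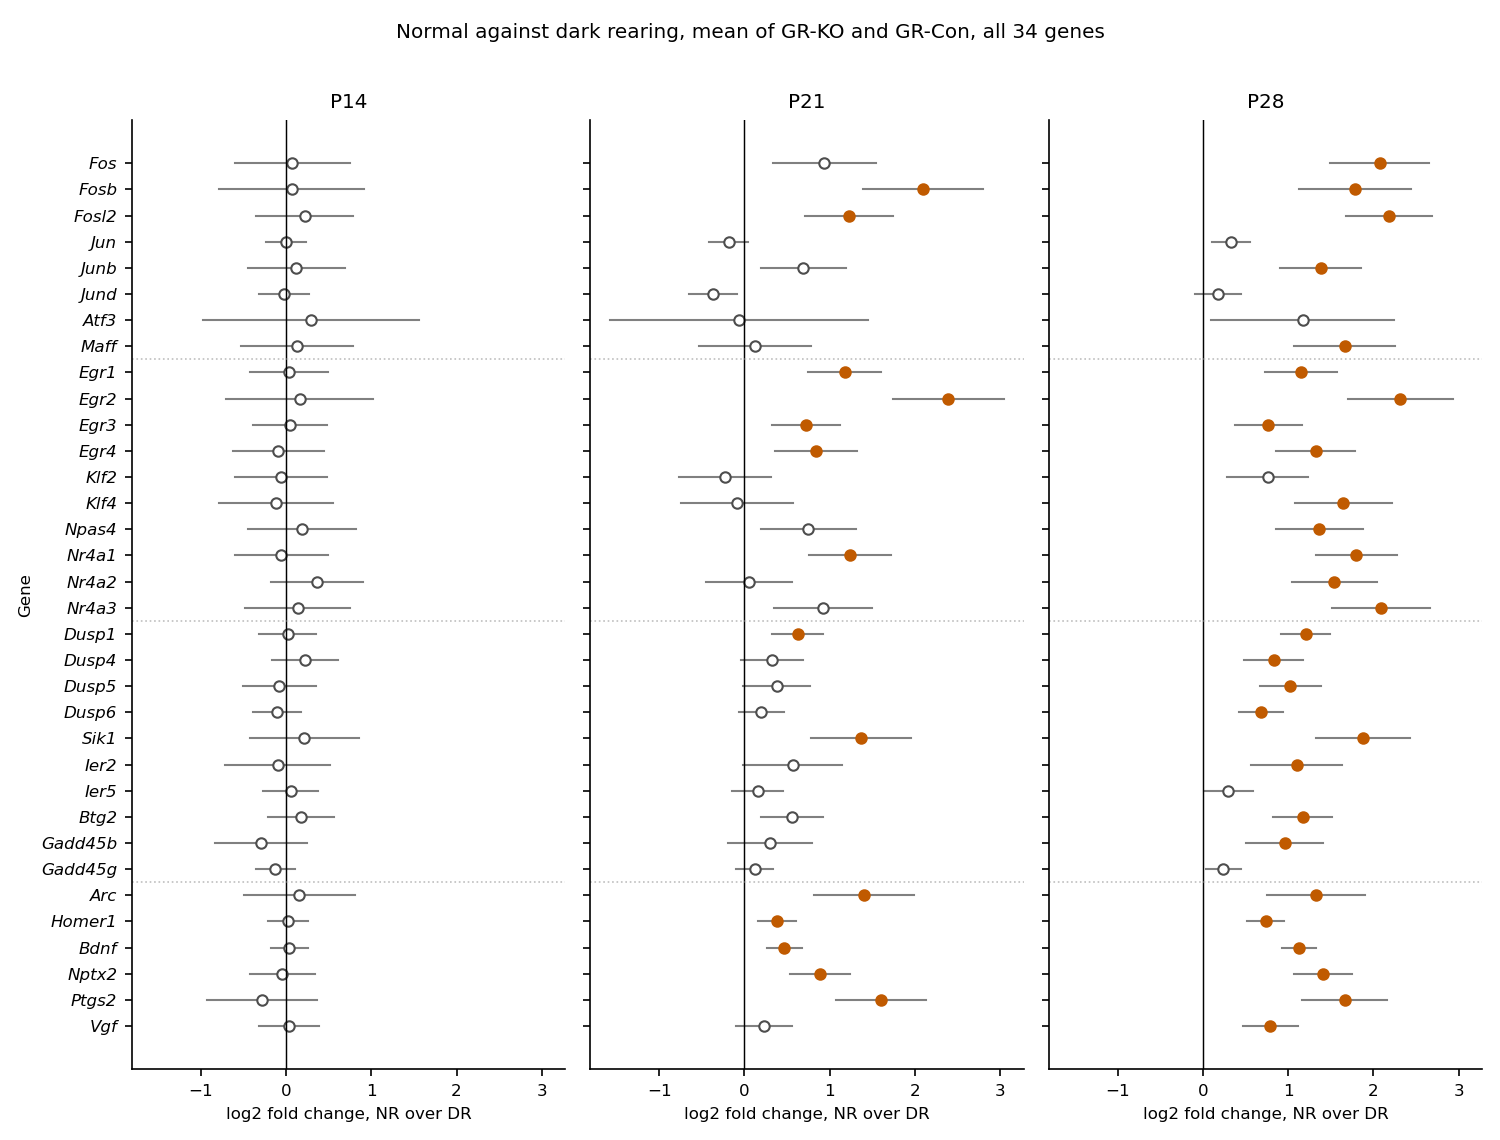
Log2 fold change of NR over DR (x axis, mean of the 2 genotypes, bars are 95% confidence intervals) for each of the 34 genes at P14, P21 and P28, with genes grouped by role and filled points for genes that passed the test. The P14 values lie between −0.29 and 0.36, 14 genes passed the test at P21 and 28 at P28, and the largest values belong to Egr2 (2.39 at P21 and 2.31 at P28).

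Among the AP-1 genes, the FOS genes had the largest estimates, and Jun and Jund the smallest. Fos, the founding partner of JUN in the AP-1 dimer, had 45.5, 49.8 and 27.8 CPM in P28 NR GR-KO libraries, against 7.87, 18.3, 13.4 and 3.22 CPM in DR GR-KO. In GR-Con it had 41.3, 101 and 15.3 CPM under NR and 10.7, 10.3, 11.8 and 12.6 CPM under DR. NR and DR did not overlap in either genotype, and the log2 fold change over both was 2.07 (95% interval 1.49 to 2.65, edgeR adjusted p = 1.81e-05). Fosl2, which encodes FRA2, had 40.8, 36.0 and 32.8 CPM in NR GR-KO, against 5.92, 15.0, 10.9 and 6.28 CPM in DR GR-KO. In GR-Con the Fosl2 values were 25.2, 111 and 19.0 CPM under NR and 8.54, 10.0, 10.5 and 9.21 CPM under DR, again with no overlap, and its log2 fold change was 2.18 (1.67 to 2.69, edgeR adjusted p = 1.91e-06). Fosb rose by 1.78 on the log2 scale (edgeR adjusted p = 0.000969), with 7.94 to 9.31 CPM in NR and 1.06 to 5.90 CPM in DR of GR-KO, and 4.71 to 18.2 CPM in NR and 1.52 to 3.77 CPM in DR of GR-Con.

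Junb, a JUN protein that dampens AP-1 activity of JUN, had 38.5, 39.4 and 27.1 CPM in NR GR-KO, against 8.55, 22.8, 21 and 9.04 CPM in DR GR-KO. In GR-Con the Junb values were 42.3, 68.7 and 18.5 CPM under NR and 11.6, 13.5, 16.4 and 16.4 CPM under DR. The groups did not overlap in either genotype and Junb rose by 1.38 (0.90 to 1.86, edgeR adjusted p = 0.000443). Maff, a small MAF protein, rose by 1.66 (edgeR adjusted p = 0.000599), with 1.79 to 2.57 CPM in NR and 0.474 to 1.51 CPM in DR of GR-KO, and 1.27 to 10.8 CPM in NR and 0.770 to 1.19 CPM in DR of GR-Con. Jun, at 35.0 to 37.5 CPM in NR and 24.1 to 36.5 CPM in DR of GR-KO, did not pass (log2 0.33, 0.11 to 0.55, edgeR adjusted p = 0.12). Jund, the JUN gene that many resting cells express, gave 0.18 (−0.09 to 0.45, adjusted p = 0.616) and Atf3 gave 1.17 with a wide interval (0.10 to 2.24, adjusted p = 0.302). In GR-Con, Jun had 38.9 to 44.7 CPM in NR and 24.0 to 35.3 CPM in DR. Jund had 36.5 to 43.4 CPM in NR and 25.2 to 36.0 CPM in DR there. Both were thus separated in GR-Con, as were 4.67% of all genes with NR higher.

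**Figure D2:**
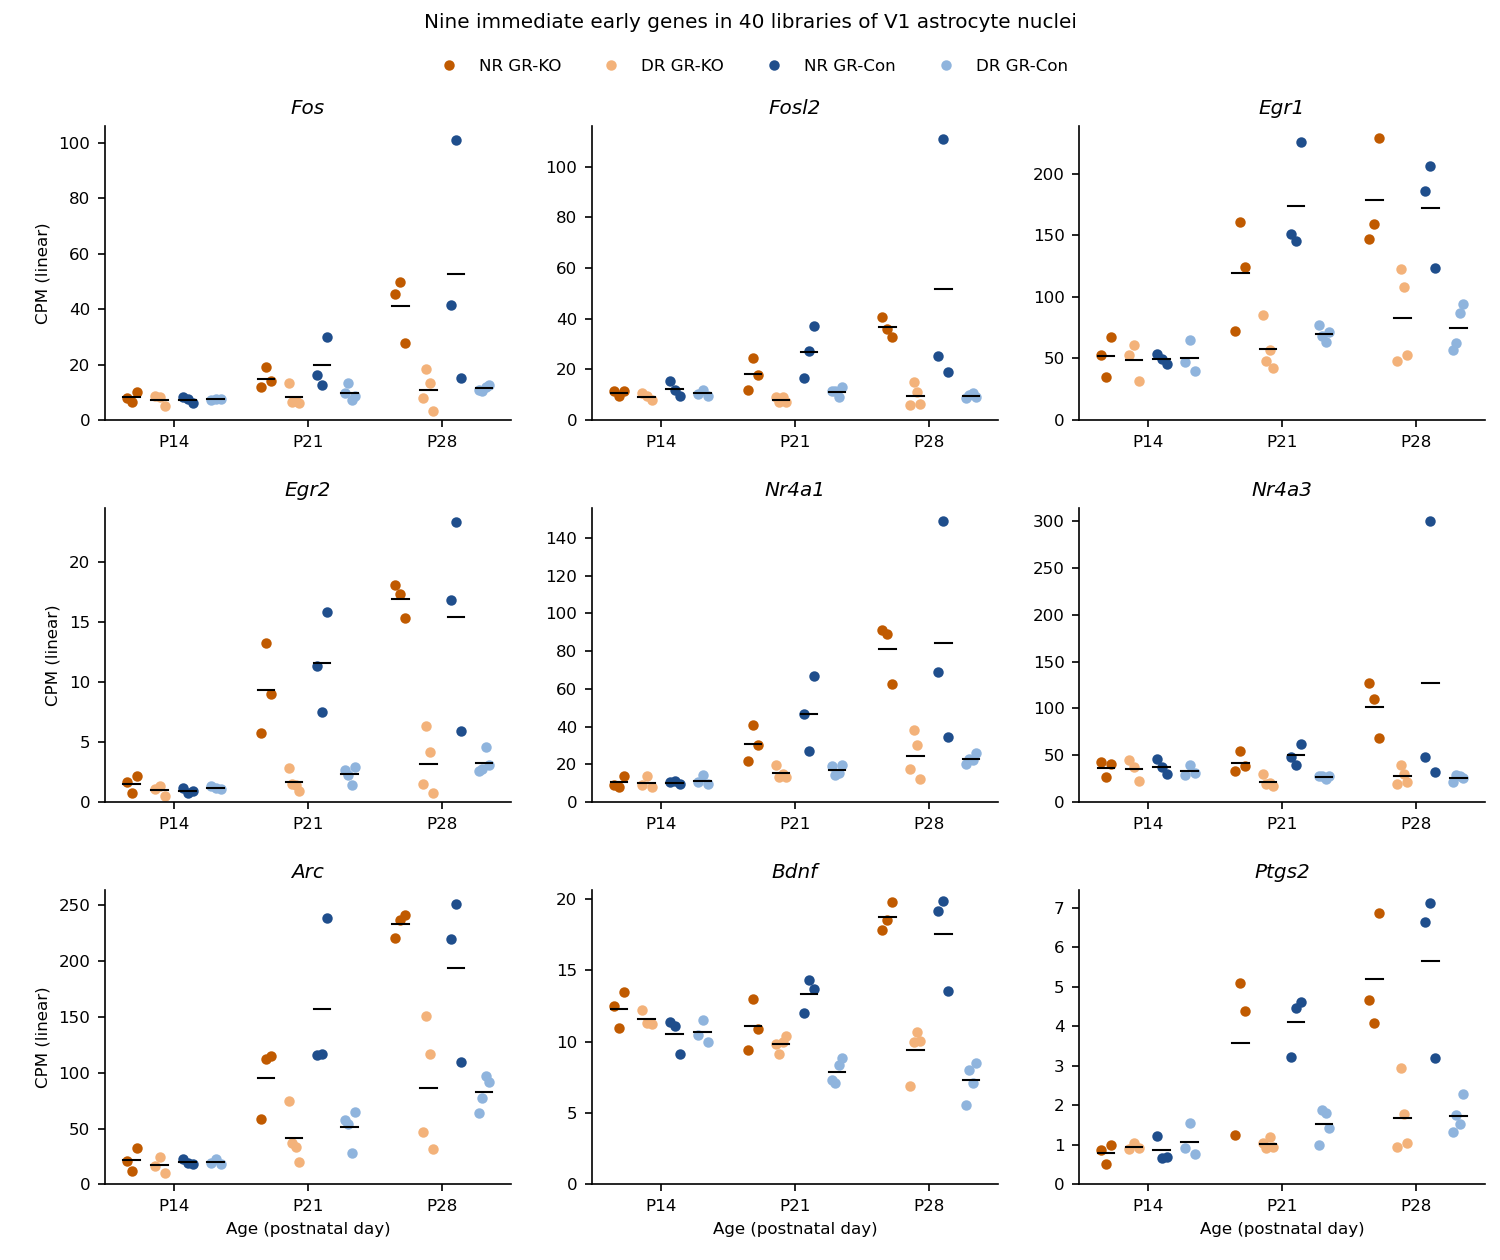
CPM per library (y axis, linear) of Fos, Fosl2, Egr1, Egr2, Nr4a1, Nr4a3, Arc, Bdnf and Ptgs2 at each age (x axis), with NR GR-KO, DR GR-KO, NR GR-Con and DR GR-Con side by side, each point 1 library of pooled mice and each line a group mean. The P28 NR libraries lie above the DR libraries for Fos in both genotypes (15.3 to 101 CPM under NR against 3.22 to 18.3 CPM under DR over both), and the highest P28 NR GR-Con value is that of replicate 2.

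The EGR zinc finger factors, which bind GC-rich promoter sites, were higher in NR at P28 in all 4 members. Egr1, the most abundant of them, had 147, 159 and 229 CPM in NR GR-KO, against 47.8, 122, 108 and 52.5 CPM in DR GR-KO. In GR-Con it had 186, 206 and 124 CPM under NR and 56.8, 62.2, 87 and 94.2 CPM under DR, with no overlap in either genotype. Its log2 fold change was 1.15 (0.73 to 1.57, edgeR adjusted p = 0.000918). Egr2 had the largest difference of the 34, 2.31 (1.70 to 2.93, adjusted p = 6.65e-06), from 18.1, 17.4 and 15.4 CPM in NR GR-KO, against 1.53, 6.34, 4.15 and 0.805 CPM in DR GR-KO, and from 16.9, 23.4 and 5.95 CPM in NR GR-Con, against 2.56, 2.79, 4.56 and 3.07 CPM in DR GR-Con. Egr4 rose by 1.32 (adjusted p = 0.000509), with 16.1 to 18.1 CPM in NR and 4.03 to 9.65 CPM in DR of GR-KO, and 8.43 to 24.8 CPM in NR and 5.02 to 9.13 CPM in DR of GR-Con. Egr3 rose least, by 0.77 (adjusted p = 0.0252), with 51.5 to 75.8 CPM in NR and 21.2 to 53.6 CPM in DR of GR-KO, and 41.2 to 69.2 CPM in NR and 25.2 to 39.9 CPM in DR of GR-Con.

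The NR4A orphan nuclear receptors, transcription factors with no established natural ligand, all passed the test. Nr4a1, or NUR77, had 91.4, 89.0 and 62.6 CPM in P28 NR GR-KO, against 17.6, 38.0, 30.3 and 12.1 CPM in DR GR-KO. In GR-Con it had 68.9, 149 and 34.7 CPM under NR and 20.4, 22.7, 22.4 and 25.9 CPM under DR, with no overlap, and a log2 fold change of 1.80 over both genotypes (1.33 to 2.27, edgeR adjusted p = 6.1e-06). Nr4a3, or NOR1, had 127, 109.7 and 68.3 CPM in NR GR-KO, against 19.1, 39.2, 30.5 and 21.1 CPM in DR GR-KO, and 48.5, 299 and 32.3 CPM in NR GR-Con, against 21.6, 28.9, 27.4 and 25.3 CPM in DR GR-Con (log2 2.09, adjusted p = 1.2e-05). The 299 CPM of a single NR GR-Con library was the highest Nr4a3 value of all 40. Nr4a2, or NURR1, rose by 1.54 (adjusted p = 0.000146), with 22.5 to 32.0 CPM in NR and 7.37 to 12 CPM in DR of GR-KO, and 13.1 to 80.2 CPM in NR and 7.83 to 16.8 CPM in DR of GR-Con.

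Npas4, a factor that in neurons responds to calcium entry more narrowly than other members, had 22.1, 19.3 and 8.49 CPM in P28 NR GR-KO, against 6.69, 9.03, 7.41 and 6.17 CPM in DR GR-KO. In GR-Con the Npas4 values were 32.5, 33.9 and 9.72 CPM under NR and 8.21, 11.4, 7.15 and 8.05 CPM under DR. The lowest NR library fell inside the DR range in both genotypes, and over both Npas4 rose by 1.36 (0.85 to 1.87, edgeR adjusted p = 0.00124). Of the Krüppel-like factors, Klf4 rose by 1.65 (adjusted p = 0.000456), with 4.23 to 6.23 CPM in NR and 1.79 to 3.59 CPM in DR of GR-KO, and 2.60 to 23.2 CPM in NR and 1.75 to 2.60 CPM in DR of GR-Con. Klf2 was the transcription factor of this group that did not pass (0.76, 0.28 to 1.23, adjusted p = 0.0835), with 2.18 to 3.39 CPM in NR and 0.575 to 2.19 CPM in DR of GR-KO.

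Genes that end or limit signalling rose too. Dusp1, a nuclear phosphatase that inactivates the kinases p38, JNK and ERK, had 26.2, 25.1 and 18.3 CPM in P28 NR GR-KO, against 8.97, 13.3, 10.3 and 7.11 CPM in DR GR-KO, and 32.1, 41.4 and 14.9 CPM in NR GR-Con, against 12, 14.3, 12 and 13.4 CPM in DR GR-Con. NR and DR Dusp1 values did not overlap in either genotype and it rose by 1.20 (0.92 to 1.49, edgeR adjusted p = 1.91e-06). Sik1, a kinase that restrains the CREB coactivators, had 45.2, 41.6 and 25.8 CPM in NR GR-KO, against 6.47, 14.7, 8.21 and 3.96 CPM in DR GR-KO, and 22.3, 66.7 and 13.0 CPM in NR GR-Con, against 10.9, 16.1, 11.3 and 7.0 CPM in DR GR-Con. The Sik1 groups overlapped in GR-Con alone, where the lowest NR library lay under the highest DR library, and its log2 fold change over both was 1.88 (1.33 to 2.43, edgeR adjusted p = 3.67e-05).

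The ERK phosphatases changed less. Dusp5 rose by 1.02 (adjusted p = 0.000531), with 7.50 to 8.94 CPM in NR and 2.32 to 6.06 CPM in DR of GR-KO, and 4.83 to 10.2 CPM in NR and 3.54 to 4.46 CPM in DR of GR-Con. Dusp4 rose by 0.83 (adjusted p = 0.00446), with 5.83 to 11.2 CPM in NR and 3.68 to 5.48 CPM in DR of GR-KO, and 7.40 to 7.96 CPM in NR and 3.04 to 6.71 CPM in DR of GR-Con. Dusp6, the cytoplasmic one, rose by 0.68 (adjusted p = 0.00136), with 37.8 to 47.4 CPM in NR and 20.6 to 35.1 CPM in DR of GR-KO, and 46.8 to 54.1 CPM in NR and 23.1 to 34.7 CPM in DR of GR-Con. The antiproliferative gene Btg2 rose by 1.17 (adjusted p = 4.32e-05), with 17.3 to 32.8 CPM in NR and 10.2 to 16.2 CPM in DR of GR-KO, and 15.9 to 57.2 CPM in NR and 12.1 to 14.7 CPM in DR of GR-Con. Ier2, an early response gene, rose by 1.10 (adjusted p = 0.016), with 5.66 to 9.66 CPM in NR and 1.56 to 5.51 CPM in DR of GR-KO, and 3.68 to 12.7 CPM in NR and 3.44 to 3.86 CPM in DR of GR-Con. Gadd45b, which takes part in DNA demethylation and stress signalling, rose by 0.96 (adjusted p = 0.0136), with 3.69 to 5.86 CPM in NR and 1.53 to 3.49 CPM in DR of GR-KO, and 2.36 to 7.88 CPM in NR and 1.78 to 2.68 CPM in DR of GR-Con. Its relative Gadd45g (0.24, 0.03 to 0.45, adjusted p = 0.27) and Ier5 (0.30, 0.01 to 0.58, adjusted p = 0.337) did not pass. Gadd45g was separated in GR-Con, with 14.6 to 16.3 CPM in NR and 10.1 to 12.8 CPM in DR, but overlapped in GR-KO.

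All 6 effectors were higher in NR at P28. Bdnf, the neurotrophin, had the smallest adjusted p of the 34, with 17.8, 18.5 and 19.8 CPM in NR GR-KO, against 6.87, 9.99, 10.6 and 10.0 CPM in DR GR-KO. In GR-Con it had 19.1, 19.9 and 13.5 CPM under NR and 5.57, 8.01, 7.13 and 8.49 CPM under DR, with no overlap and a log2 fold change of 1.13 (0.93 to 1.33, edgeR adjusted p = 3.3e-09). Nptx2, a secreted pentraxin that gathers AMPA receptors, had 16.8, 16.7 and 24.0 CPM in NR GR-KO, against 5.05, 8.79, 9.29 and 6.63 CPM in DR GR-KO, and 19.5, 19.6 and 17.5 CPM in NR GR-Con, against 5.35, 6.69, 8.76 and 6.79 CPM in DR GR-Con (log2 1.41, adjusted p = 2.32e-06). Arc, which drives AMPA receptors into the cell, had 221, 237 and 242 CPM in NR GR-KO, against 47.1, 151, 117 and 31.9 CPM in DR GR-KO. In GR-Con the Arc values were 219.9, 251 and 109.5 CPM under NR and 64.2, 77.4, 97 and 91.7 CPM under DR, without overlap, and it rose by 1.33 (0.75 to 1.91, edgeR adjusted p = 0.00611).

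Homer1, a scaffold of the postsynaptic density, was the most highly counted member and changed the least of the effectors, with 369.9, 394 and 289.7 CPM in NR GR-KO, against 203, 244, 203 and 155 CPM in DR GR-KO. In GR-Con it had 315, 379 and 253 CPM under NR and 190.4, 243, 174 and 185 CPM under DR, and its log2 fold change was 0.74 (0.52 to 0.95, edgeR adjusted p = 3.69e-05). Ptgs2, which encodes cyclooxygenase 2, rose by 1.66 (adjusted p = 4.64e-05) at a low level, with 4.09 to 6.87 CPM in NR and 0.948 to 2.95 CPM in DR of GR-KO, and 3.20 to 7.11 CPM in NR and 1.34 to 2.28 CPM in DR of GR-Con. Vgf, a secreted neuropeptide precursor, rose by 0.79 (adjusted p = 0.00341), with 29.3 to 48.6 CPM in NR and 13.1 to 28.4 CPM in DR of GR-KO, and 33.5 to 41.8 CPM in NR and 15.1 to 24.9 CPM in DR of GR-Con.

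A single library weighed on the P28 values. Replicate 2 of NR GR-Con was the highest of its group for 30 of the 34 members, with a summed level of 2330 CPM, and replicate 3 the lowest for 31, with 1001 CPM, the remaining library being at 1489 CPM. The astrocyte markers summed to 15387 CPM in replicate 2 and the neuron markers to 3632 CPM, inside the range of its group for both. Without replicate 2 the count over both genotypes was 25, with Egr3 (adjusted p = 0.123), Gadd45b (0.152) and Ier2 (0.103) no longer called. The log2 fold changes that fell most were Nr4a3 to 1.27, Klf4 to 0.87, Maff to 0.88 and Nr4a2 to 0.90, while Bdnf stayed at 1.08 and Nptx2 at 1.39.

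**Figure D3:**
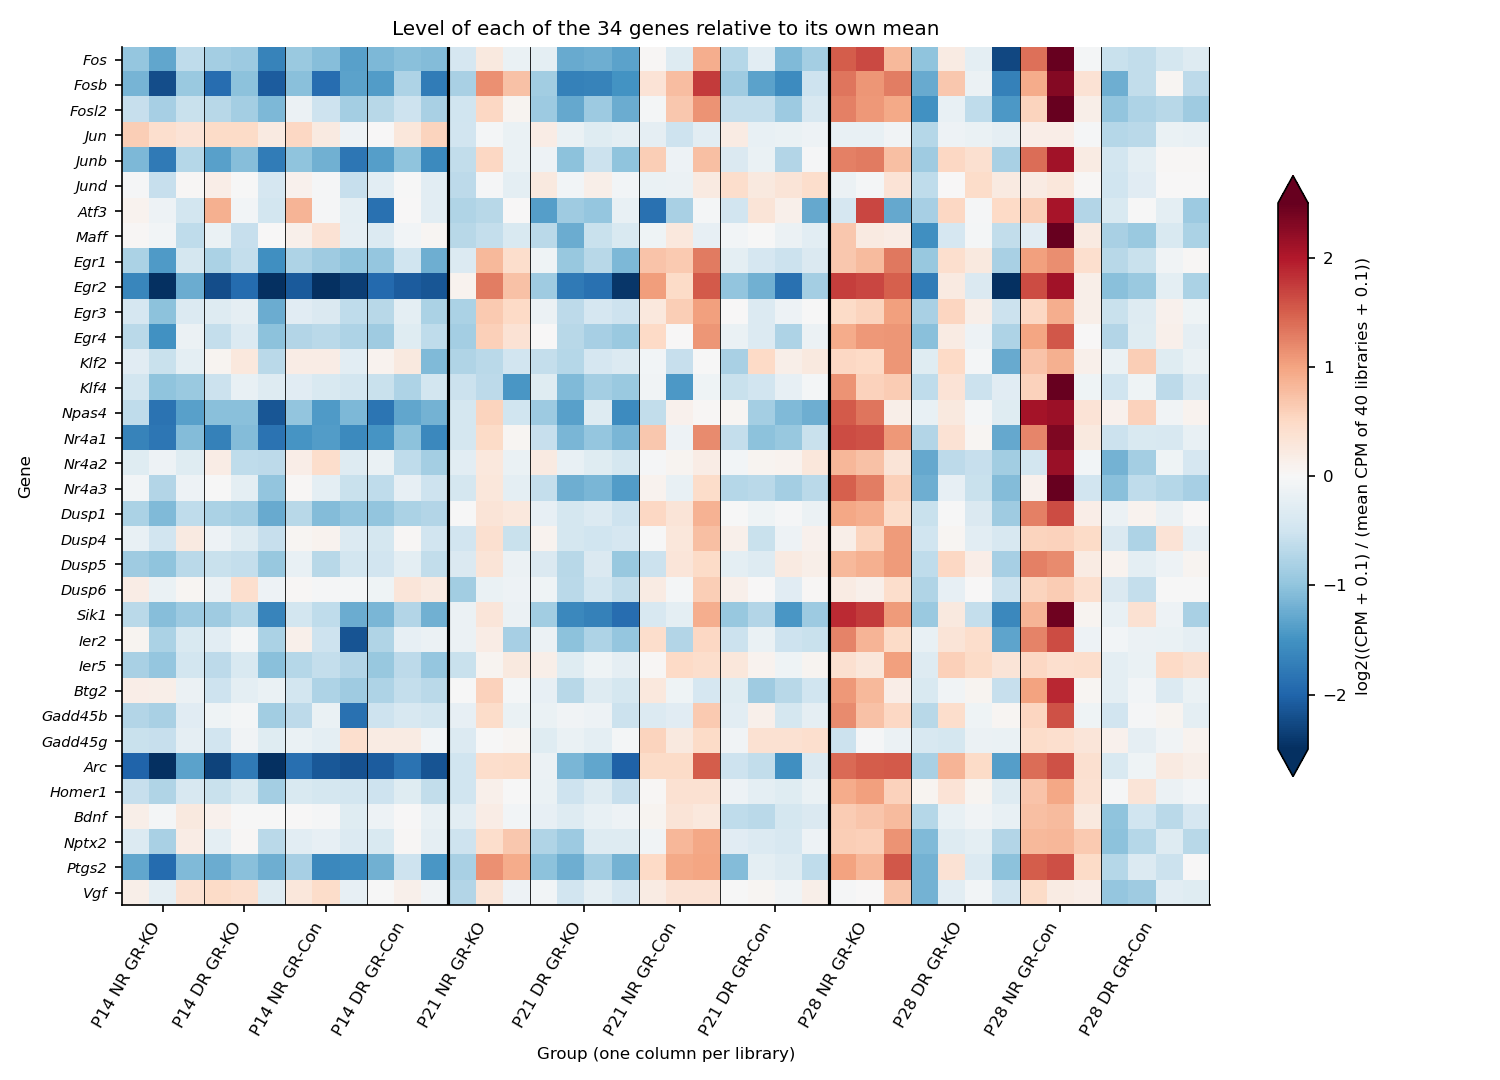
Level of each of the 34 genes (rows, by role) in each of the 40 libraries (columns, by age and group), as log2 of CPM plus 0.1 over the gene's mean plus 0.1, with colours limited to ±2.5. The summed levels of the P28 NR columns run from 1001 to 2330 CPM, against 557 to 1013 CPM in P28 DR and 600 to 1437 CPM in P21 NR, and replicate 2 of P28 NR GR-Con stands out with a summed level of 2330 CPM, against 1001 and 1489 CPM in the other libraries of its group.

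At P21 fewer members were called. The 6 P21 NR libraries were also the shallowest of the series, with 17240294 to 28137389 counts and 17322 to 18239 genes detected, against 38176971 to 49221787 counts and 18380 to 19795 genes in the 8 P21 DR libraries. In GR-Con the astrocyte markers also summed to more in NR than in DR without overlap (17313 to 18445 CPM in NR and 14841 to 16254 CPM in DR), and the part of depth and of astrocyte content in the P21 differences was not tested. Over both genotypes 14 of the 34 were called, all higher in NR, against 2.73% of all genes called higher, and the median log2 fold change was 0.56 against −0.0123 over all genes. By role the called members were 2 of 8 AP-1 genes, 5 of 10 further transcription factors, 2 of 10 feedback genes and 5 of 6 effectors. Egr2 had the largest difference, with 5.73, 13.3 and 9.03 CPM in NR GR-KO, against 2.85, 1.52, 1.40 and 0.914 CPM in DR GR-KO. In GR-Con the Egr2 values were 11.3, 7.52 and 15.9 CPM under NR and 2.66, 2.30, 1.40 and 2.93 CPM under DR, with a log2 fold change of 2.39 over both (1.74 to 3.04, edgeR adjusted p = 2.23e-05). NR and DR did not overlap in either genotype for Egr2.

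Egr1 rose by 1.18 at P21 (0.75 to 1.60, edgeR adjusted p = 0.000917), with 72.3, 161 and 124 CPM in NR GR-KO, against 85.6, 47.9, 56.6 and 41.9 CPM in DR GR-KO, and 151, 145 and 226 CPM in NR GR-Con, against 77.3, 68.4, 62.9 and 71.7 CPM in DR GR-Con. The NR GR-KO library at 72.3 CPM lay inside the DR range, while GR-Con did not overlap. Arc rose by 1.40 (0.82 to 1.99, adjusted p = 0.00363), with 58.4, 113 and 115 CPM in NR GR-KO, against 74.8, 37.5, 33.7 and 20.3 CPM in DR GR-KO, and 116, 116 and 239 CPM in NR GR-Con, against 57.9, 54.4, 28.6 and 64.7 CPM in DR GR-Con. Arc showed the same arrangement as Egr1, with the low NR GR-KO library of both being replicate 1. Nr4a1 rose by 1.23 (0.75 to 1.72, adjusted p = 0.00223), with 21.7, 40.9 and 30.2 CPM in NR GR-KO, against 19.5, 13.2, 15.0 and 13.2 CPM in DR GR-KO, and 46.8, 26.9 and 66.7 CPM in NR GR-Con, against 19.3, 14.3, 15.3 and 19.8 CPM in DR GR-Con, without overlap in either genotype.

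The remaining P21 calls were Ptgs2 (log2 1.60, 1.25 to 5.10 CPM in NR and 0.919 to 1.21 CPM in DR of GR-KO, 3.23 to 4.61 CPM in NR and 1.01 to 1.89 CPM in DR of GR-Con) and Fosb (2.09, 2.03 to 8.15 CPM in NR and 1.06 to 1.96 CPM in DR of GR-KO, 4.67 to 12.4 CPM in NR and 1.15 to 2.51 CPM in DR of GR-Con). Fosl2 rose by 1.22 (adjusted p = 0.00415), with 12 to 24.5 CPM in NR and 6.97 to 9.04 CPM in DR of GR-KO. In GR-Con, Fosl2 had 16.5 to 37.1 CPM in NR and 9.09 to 12.9 CPM in DR. Sik1 rose by 1.37 (adjusted p = 0.00444), with 11.1 to 15.3 CPM in NR and 3.21 to 6.73 CPM in DR of GR-KO. In GR-Con, Sik1 had 9.39 to 23.2 CPM in NR and 4.46 to 7.36 CPM in DR. Dusp1 rose by 0.62 (adjusted p = 0.0102), with 13.3 to 16.7 CPM in NR and 9.24 to 11.6 CPM in DR of GR-KO. In GR-Con, Dusp1 had 16.7 to 24.3 CPM in NR and 12 to 13.2 CPM in DR. NR and DR did not overlap in either genotype for these 3 genes. Nptx2 rose by 0.89 (adjusted p = 0.00263), with 7.64 to 17.7 CPM in NR and 5.85 to 8.74 CPM in DR of GR-KO. In GR-Con, Nptx2 had 10.4 to 21.6 CPM in NR and 8.36 to 10.1 CPM in DR. Bdnf rose by 0.47 (adjusted p = 0.00588), with 9.43 to 13.0 CPM in NR and 9.12 to 10.4 CPM in DR of GR-KO. In GR-Con, Bdnf had 12 to 14.3 CPM in NR and 7.08 to 8.87 CPM in DR. Homer1 rose by 0.38 (adjusted p = 0.0308), with 136 to 211 CPM in NR and 129 to 171 CPM in DR of GR-KO. In GR-Con, Homer1 had 196 to 253 CPM in NR and 157 to 177 CPM in DR. For Nptx2, Bdnf and Homer1 the NR and DR libraries overlapped in GR-KO and not in GR-Con. Egr3 rose by 0.72 (adjusted p = 0.0246), with 21.4 to 58.8 CPM in NR and 23.6 to 33.4 CPM in DR of GR-KO. In GR-Con, Egr3 had 44.5 to 75.6 CPM in NR and 29.3 to 37.2 CPM in DR. Egr4 rose by 0.84 (adjusted p = 0.031), with 4.60 to 12.7 CPM in NR and 4.37 to 8.50 CPM in DR of GR-KO. In GR-Con, Egr4 had 8.50 to 18.3 CPM in NR and 4.91 to 7.57 CPM in DR. Both EGR genes overlapped in GR-KO and were separated in GR-Con.

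Fos, Junb and Npas4 did not pass at P21. Fos gave 0.94 (0.33 to 1.54, edgeR adjusted p = 0.0567), with 11.8, 19.0 and 14.1 CPM in NR GR-KO, against 13.5, 6.63, 6.80 and 6.25 CPM in DR GR-KO, and 16.3, 12.7 and 30.1 CPM in NR GR-Con, against 9.62, 13.2, 7.36 and 8.77 CPM in DR GR-Con, so that 1 NR library lay within the DR range in each genotype. Junb gave 0.69 (adjusted p = 0.091), with 10.4 to 22.9 CPM in NR and 7.79 to 14.6 CPM in DR of GR-KO. In GR-Con, Junb had 14.6 to 26.9 CPM in NR and 9.62 to 15.6 CPM in DR. Npas4 gave 0.75 (adjusted p = 0.101), with 5.34 to 11.2 CPM in NR and 2.49 to 6.09 CPM in DR of GR-KO. In GR-Con, Npas4 had 4.91 to 8.17 CPM in NR and 3.20 to 7.88 CPM in DR. The NR and DR ranges of both genes overlapped in both genotypes. Jund had the lowest value, −0.37 (−0.65 to −0.09, adjusted p = 0.104).

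The P21 set was contained in the P28 set. Of the 34 genes, 14 were called at both ages, 14 at P28 only, 0 at P21 only and 6 at neither (Jun, Jund, Atf3, Klf2, Ier5 and Gadd45g), and the estimate was larger at P28 for 30 of 34. Called at P28 and not at P21 were Fos, Junb, Maff, Klf4, Npas4, Nr4a2, Nr4a3, Btg2, Gadd45b, Ier2, Dusp4, Dusp5, Dusp6 and Vgf. Whether each difference itself changed with age was tested by interaction.

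At P14, around the age at which mice open their eyes, no member was called for rearing. In each of the 3 P14 comparisons, over both genotypes, in GR-KO and in GR-Con, 0 of 34 members were called by edgeR and by DESeq2, with 0 of 34 at an unadjusted p under 0.05, and edgeR called 0 of all 17106 genes (0%), although 319, 288 and 471 genes had an unadjusted p under 0.05. The 34 log2 fold changes over both genotypes ran from −0.29 to 0.36 with a median of 0.04. Fos had 8.11, 6.41 and 10.2 CPM in P14 NR GR-KO, against 8.73, 8.42 and 4.92 CPM in DR GR-KO, and 8.27, 7.56 and 6.17 CPM in NR GR-Con, against 7.23, 7.64 and 7.45 CPM in DR GR-Con (log2 0.07, −0.60 to 0.75). Arc had 20.7, 11.7 and 33.0 CPM in NR GR-KO, against 16.6, 24.5 and 10.6 CPM in DR GR-KO, and 22.6, 19.2 and 18.4 CPM in NR GR-Con, against 19.6, 23.1 and 18.5 CPM in DR GR-Con (log2 0.16, −0.50 to 0.81). Groups overlapped for both. Egr1 had 34.5 to 67.6 CPM in NR and 31.6 to 60.9 CPM in DR of GR-KO. In GR-Con, Egr1 had 45.8 to 53.9 CPM in NR and 39.6 to 65.0 CPM in DR. Nr4a1 had 8.28 to 13.9 CPM in NR and 8.07 to 13.7 CPM in DR of GR-KO. In GR-Con, Nr4a1 had 9.74 to 11.1 CPM in NR and 9.50 to 14.3 CPM in DR. Junb had 4.60 to 9.73 CPM in NR and 4.66 to 7.56 CPM in DR of GR-KO. In GR-Con, Junb had 4.50 to 7.91 CPM in NR and 5.25 to 7.96 CPM in DR. These ranges overlapped too, as did those of Npas4, which had 2.05 to 4.90 CPM in NR and 1.64 to 3.66 CPM in DR of GR-KO. In GR-Con, Npas4 had 2.78 to 3.78 CPM in NR and 2.08 to 3.29 CPM in DR. The estimates with their intervals were 0.03 (−0.43 to 0.49) for Egr1, −0.06 (−0.60 to 0.49) for Nr4a1, 0.12 (−0.45 to 0.69) for Junb, 0.19 (−0.44 to 0.82) for Npas4 and 0.04 (−0.18 to 0.26) for Bdnf. The P28 estimates lay outside these intervals for each of these genes and for Fos and Arc, which leaves out the error of the P28 estimates. The direct test of a change from P14 to P28 passed for Fos, Nr4a1 and Bdnf, and not for Egr1, Junb, Npas4 and Arc.

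The second question was whether the rearing difference depended on the receptor. Within GR-KO at P28, 14 members were called, all higher in NR, against 0.561% of all genes. They were Bdnf (log2 0.99), Dusp1 (1.22), Nptx2 (1.36), Sik1 (2.17), Egr2 (2.38), Fosl2 (1.93), Homer1 (0.80), Nr4a1 (1.72), Fos (1.93), Nr4a3 (1.88), Ptgs2 (1.61), Egr4 (1.40), Nr4a2 (1.47) and Dusp5 (1.03). NR and DR GR-KO libraries did not overlap for 26 of the 34, against 3.7% of all genes. Within GR-Con at P28, 19 were called, against 0.386% of all genes, namely Bdnf (1.26), Fosl2 (2.43), Nptx2 (1.45), Dusp1 (1.19), Nr4a1 (1.88), Nr4a3 (2.29), Maff (2.33), Btg2 (1.37), Klf4 (2.25), Fos (2.21), Egr2 (2.25), Ptgs2 (1.71), Junb (1.58), Nr4a2 (1.61), Homer1 (0.67), Npas4 (1.54), Fosb (2.01), Dusp6 (0.77) and Sik1 (1.59). The groups did not overlap for 25 members, against 4.67% of all genes, and Nr4a2, Npas4 and Sik1 were called although they overlapped. Egr1 and Arc were separated in both genotypes without passing in either, with adjusted p = 0.0757 and 0.106 in GR-KO and 0.0513 and 0.225 in GR-Con (edgeR).

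The single-genotype counts depended on single libraries. In GR-Con at P28, 2 members were called without NR replicate 2 (Bdnf, log2 1.16, adjusted p = 0.000123, and Nptx2, 1.43, adjusted p = 0.0296, edgeR) and 11 without DR replicate 1. In GR-KO at P28, 4 were called without NR replicate 1, 8 without NR replicate 2 and 8 without DR replicate 4. The counts also depended on the spread shared by all 12 groups. Fits of only the groups compared called 0 members in P28 GR-KO and 1 in P28 GR-Con, but 3 in P21 GR-KO and 19 in P21 GR-Con.

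At P21 only Egr2 (log2 2.47, edgeR adjusted p = 0.00874) and Ptgs2 (1.78, adjusted p = 0.0299) were called within GR-KO, against 0.0818% of all genes, and 10 members did not overlap, against 5.25%. Within GR-Con at P21, 8 were called, against 0.602% of all genes: Bdnf (0.76), Egr2 (2.32), Fosb (2.17), Egr1 (1.31), Nr4a1 (1.45), Arc (1.61), Ptgs2 (1.43) and Nptx2 (0.93). There 16 members did not overlap with NR higher, against 9.45% of all genes, and Jun and Jund did not overlap with NR lower, against 9.24%. The GR-KO count was 0 without DR replicate 3, DR replicate 4 or NR replicate 2 and 1 without DR replicate 1, DR replicate 2 or NR replicate 3. The GR-Con count was 3, 4 and 2 without DR replicates 1, 2 and 3, and 5, 5 and 1 without NR replicates 1, 2 and 3.

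**Figure D4:**
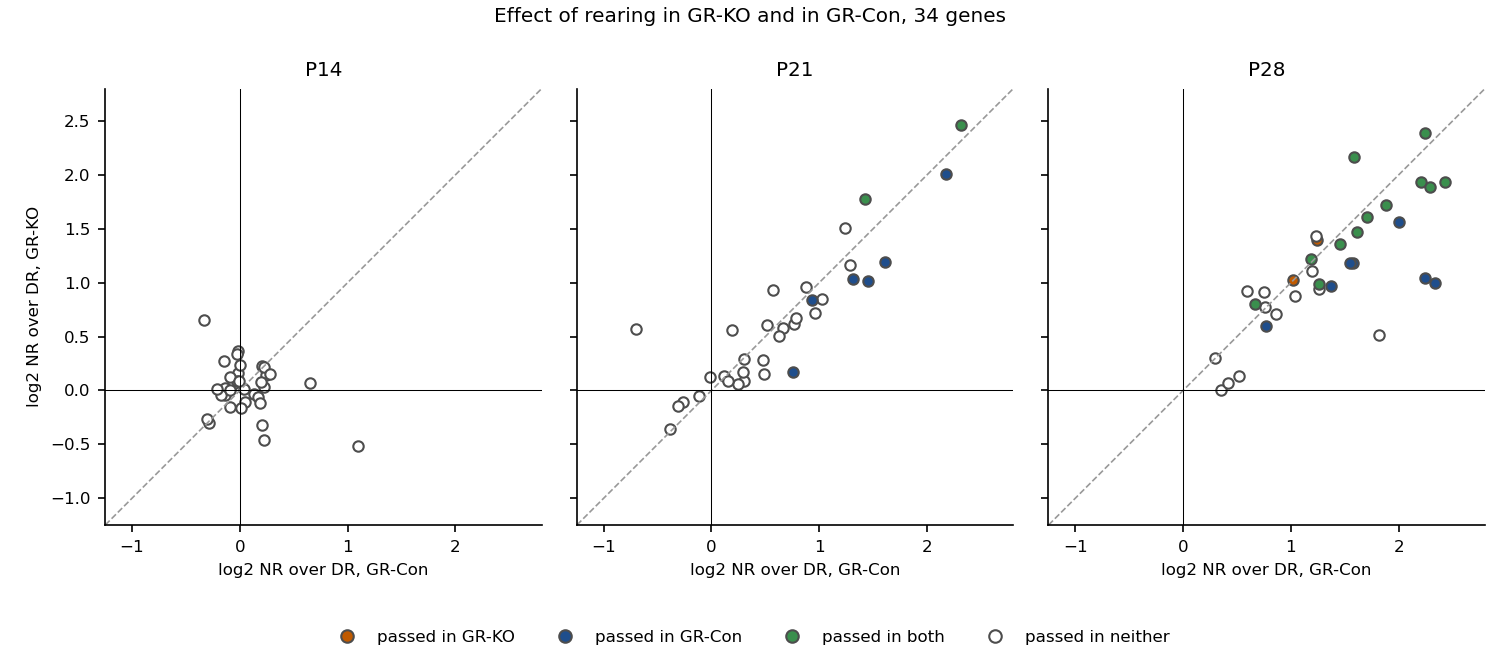
Log2 fold change of NR over DR in GR-KO (y axis) against that in GR-Con (x axis), each point 1 of the 34 genes, at P14, P21 and P28, coloured by the genotypes in which it passed the test, with a dashed line of equal change. All 34 points lie above 0 on both axes at P28, 28 do at P21 and 9 at P14.

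The 2 genotypes gave similar orders of the genes from separate libraries. All 34 estimates were positive in both genotypes at P28, 28 at P21 and 9 at P14, with 12 members called in both genotypes at P28 and 2 at P21. Across the 34 genes, which are not independent, the estimates of GR-KO and GR-Con had a Pearson r of 0.766 at P28 (Spearman 0.766), 0.887 at P21 (0.903) and −0.324 at P14 (−0.0472). When the difference between genotypes was tested itself, as the interaction of rearing and GR, 0 members passed at any age by edgeR or DESeq2. The interaction had 0 members at an unadjusted p under 0.05 at P14, 1 at P21 and 2 at P28, and over all genes 0, 0 and 1 were called (0%, 0% and 0.00585%).

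The intervals of that interaction stayed wide. At P28 (the rearing difference in GR-KO minus that in GR-Con) it was −0.27 (−1.44 to 0.89) for Fos, −0.09 (−0.94 to 0.76) for Egr1, −0.16 (−1.10 to 0.78) for Nr4a1, −0.40 (−1.36 to 0.56) for Junb, 0.20 (−0.96 to 1.36) for Arc and −0.36 (−1.39 to 0.66) for Npas4. It was narrowest among the effectors for Bdnf (−0.27, −0.67 to 0.13). Maff (−1.34, −2.53 to −0.15, edgeR adjusted p = 0.572) and Klf4 (−1.20, −2.35 to −0.05, adjusted p = 0.583) had the 2 unadjusted values under 0.05 at P28, and both are genes whose NR GR-Con mean rested on replicate 2 (10.8 of 1.27, 10.8 and 1.84 CPM for Maff). At P21 it was Bdnf, at −0.58 (−1.0 to −0.17, adjusted p = 1).

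Comparing GR-KO with GR-Con directly, few members differed. Gadd45g, a growth arrest gene not called for rearing at any age, was called in 3 of the 6 comparisons. In P28 NR mice it had 8.11, 11.6 and 10.7 CPM in GR-KO, against 16.3, 15.8 and 14.6 CPM in GR-Con, without overlap (log2 −0.62, −0.93 to −0.30, edgeR adjusted p = 0.0159, with 1.54% of all genes called lower). In P21 NR mice it had 9.31, 11.7 and 12.2 CPM in GR-KO, against 17.5, 13.9 and 16.5 CPM in GR-Con, also without overlap (−0.53, adjusted p = 0.0388, with 2.57% called lower). In P21 DR mice it had 9.54, 10.6, 9.95 and 11.4 CPM in GR-KO, against 11.1, 15.4, 15.4 and 15.8 CPM in GR-Con, where 1 GR-Con library lay in the GR-KO range (−0.48, adjusted p = 0.0249, with 2.38% called lower). Gadd45g was also lower at P14, by 0.47 in NR and 0.41 in DR, and at P28 DR by 0.27, without passing (adjusted p = 0.211, 0.743 and 0.519).

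Dusp6 was lower in GR-KO in P21 NR mice, with 19.0, 30.9 and 31.7 CPM, against 40.1, 33.8 and 53.2 CPM in GR-Con (−0.65, −1.05 to −0.24, edgeR adjusted p = 0.0417). The groups did not overlap, but their edges were 31.7 and 33.8 CPM. The P28 NR count was 0 without NR GR-KO replicate 1, 3 without NR GR-Con replicate 2 and 4 without NR GR-Con replicate 3. Both P21 NR calls were lost without NR GR-KO replicate 1, NR GR-Con replicate 1 or NR GR-Con replicate 3, and the P21 DR call was lost without any 1 of 6 of its 8 libraries. In P14 NR, P14 DR and P28 DR mice 0 members were called by edgeR and by DESeq2, against 1.11%, 0.275% and 2.84% of all genes, with 2 (Btg2 and Gadd45g), 1 (Gadd45g) and 1 (Bdnf) at an unadjusted p under 0.05.

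For the 6 genes followed throughout, GR-KO minus GR-Con in P28 NR mice was −0.36 (−1.22 to 0.50) for Fos, 0.05 (−0.59 to 0.69) for Egr1, −0.05 (−0.76 to 0.65) for Nr4a1, −0.30 (−1.02 to 0.41) for Junb, 0.27 (−0.61 to 1.14) for Arc and −0.61 (−1.38 to 0.16) for Npas4, with edgeR adjusted p from 0.438 to 0.964. Genes induced by glucocorticoids were lower in GR-KO in most comparisons. Of 14 tested, 10 were called lower in P21 NR, P28 NR and P21 DR (against 2.57%, 1.54% and 2.38% of all genes). In P14 NR 8 were called lower, in P28 DR 7 and in P14 DR 1 (against 1.11%, 2.84% and 0.275% of all genes called in either direction).

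The third question was whether the rearing difference itself changed with age. From P14 to P28 it grew for 9 members (against 0.152% of all genes), with the change over both genotypes largest for Fos (log2 2.00, 1.11 to 2.89, edgeR adjusted p = 0.0401), Fosl2 (1.96, 1.20 to 2.72, adjusted p = 0.0123), Nr4a3 (1.95), Ptgs2 (1.94) and Nr4a1 (1.86), and smaller for Nptx2 (1.45), Dusp1 (1.19), Bdnf (1.09, 0.79 to 1.38, adjusted p = 0.000152) and Homer1 (0.71). All 34 changes were positive, from 0.21 to 2.15, with a median of 1.18 against 0.0028 over all genes. From P14 to P21 only Ptgs2 passed (1.88, 1.05 to 2.72, adjusted p = 0.0454, against 0.0526% of genes), and from P21 to P28 Bdnf (0.66, adjusted p = 0.0236) and Nr4a2 (1.49, adjusted p = 0.0448, against 0.275% of genes). The 3 interactions share libraries and are not separate evidence.

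These interaction calls varied with single libraries. From P14 to P28 the count ran from 5 to 18 with 1 library left out, and Bdnf, Fosl2, Nr4a1, Nptx2 and Dusp1 were called in each of those fits. Leaving out P28 NR GR-Con replicate 2 gave 5, and replicate 3 of the same group gave 18. The single P14 to P21 call was lost in 21 of those fits, and the P21 to P28 count ran from 0 (without P28 NR GR-Con replicate 2, P28 NR GR-KO replicate 2, P21 NR GR-Con replicate 1, or P21 NR GR-KO replicates 1 or 3) to 5 (without P28 NR GR-Con replicate 3).

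Levels were also compared between the 3 ages within each group. The summed level of the 34 was 473 to 656 CPM at P14, 600 to 1065 CPM at P21 and 1521 to 1612 CPM at P28 in NR GR-KO, and 517 to 639, 987 to 1437 and 1001 to 2330 CPM in NR GR-Con. In DR GR-KO it was 439 to 645, 494 to 744 and 557 to 1013 CPM, and in DR GR-Con 528 to 641, 620 to 739 and 627 to 781 CPM.

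The tests of age used a fold minimum of 0.3 on the log2 scale. Between P21 and P14, 16 members were called in NR GR-Con (against 13.7% of all genes), 9 in NR GR-KO (against 10%), 5 in DR GR-Con (against 13.2%) and 2 in DR GR-KO (against 11.5%); the 2 DR counts are close to or under those shares of 34. The neuron markers moved with age as well, with sums at P21 of 4328 to 4398 CPM in NR GR-Con, against 2875 to 3544 CPM at P14, and of 3824 to 4255 CPM in DR GR-Con, against 2861 to 3553 CPM, both without overlap. In GR-KO the sums overlapped (2528 to 4089 CPM at P21, against 2284 to 3408 CPM at P14 in NR, and 2951 to 4021 CPM, against 2212 to 3617 CPM in DR). With the neuron and oligodendrocyte marker scores as covariates, 0 members were called in each of the 4 groups. Oligodendrocyte marker sums lay at 231 to 455 CPM in P14 and 688 to 1432 CPM in P21 libraries, without overlap. That fit therefore cannot tell age from cell content, and the part of each was not tested. Without covariates, leaving out P14 NR GR-KO replicate 1 gave 5 called members in NR GR-KO. With 1 library left out, DR GR-Con gave 1 to 5 and DR GR-KO 0 to 3. The largest in NR GR-Con were Egr2 (3.58), Arc (2.97), Fosb (2.55), Ptgs2 (2.22), Nr4a1 (2.17) and Egr1 (1.81), and in NR GR-KO Egr2 (2.58), Ptgs2 (2.15), Arc (2.12), Fosb (1.95), Nr4a1 (1.56) and Egr1 (1.20). Jun ran the other way and was lower at P21 than at P14 in NR GR-KO (−0.69, adjusted p = 0.00596), NR GR-Con (−0.56, adjusted p = 0.0215) and DR GR-KO (−0.52, adjusted p = 0.0199). In NR GR-KO Jun had 28.5, 38.4 and 35.2 CPM at P21, against 61.2, 53.1 and 50.3 CPM at P14. In DR GR-Con the called members were Arc (1.33), Ier5 (0.95), Dusp1 (0.76), Jund (0.55) and Bdnf, which fell by 0.43. The Arc call was lost in 6 of 7 fits with 1 library left out in DR GR-Con and in 5 of 7 in DR GR-KO (1.27), with adjusted p up to 0.118 and 0.221.

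Between P28 and P21, 6 members were higher in NR GR-KO (against 2.74% of genes called), namely Klf4 (1.66), Sik1 (1.58), Klf2 (1.46), Nr4a1 (1.39), Homer1 (0.97) and Bdnf (0.75), and 3 in NR GR-Con (against 2.36%), namely Klf4 (2.26), Npas4 (1.86) and Btg2 (1.24). The NR GR-Con count was 0 without P28 replicate 2, 6 without P28 replicate 1 and 11 without P28 replicate 3. The NR GR-KO count was 1 without P21 replicate 1 and 2 without P21 replicate 3, P28 replicate 1 or P28 replicate 2. In DR mice 0 members were called by edgeR in GR-KO (against 3.28% of genes) and 0 in GR-Con (against 3.91%), with 11 and 7 at an unadjusted p under 0.05 and 1 each by DESeq2. The 2 steps share their P21 libraries.

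Since many of the 34 are known from neurons, the neuron markers were set beside them. None of the 14 neuron markers was called in any comparison of NR with DR, and at P28 their median log2 fold change was 0.08. At P28 their summed level was 3245 to 4073 CPM in NR GR-KO and 2869 to 4201 CPM in DR GR-KO. In GR-Con it was 3297 to 4237 CPM under NR and 2744 to 3771 CPM under DR, so NR and DR overlapped in both genotypes. The summed level of the 34 members was 1521 to 1612 CPM in NR and 557 to 1013 CPM in DR of GR-KO. In GR-Con it was 1001 to 2330 CPM in NR and 627 to 781 CPM in DR, without overlap in either genotype. Neuron marker sums do not show how much of the 34 each neuronal nucleus transcribed. At P21 the neuron sum was 2528 to 4089 CPM in NR and 2951 to 4021 CPM in DR of GR-KO, but 4328 to 4398 CPM in NR and 3824 to 4255 CPM in DR of GR-Con, where the groups did not overlap. With the neuron and oligodendrocyte marker scores as covariates, 30 members were called at P28 and 18 at P21 over both genotypes. The covariates carry the same limit, and whether neuronal RNA made up the rearing difference was not tested.

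**Figure D5:**
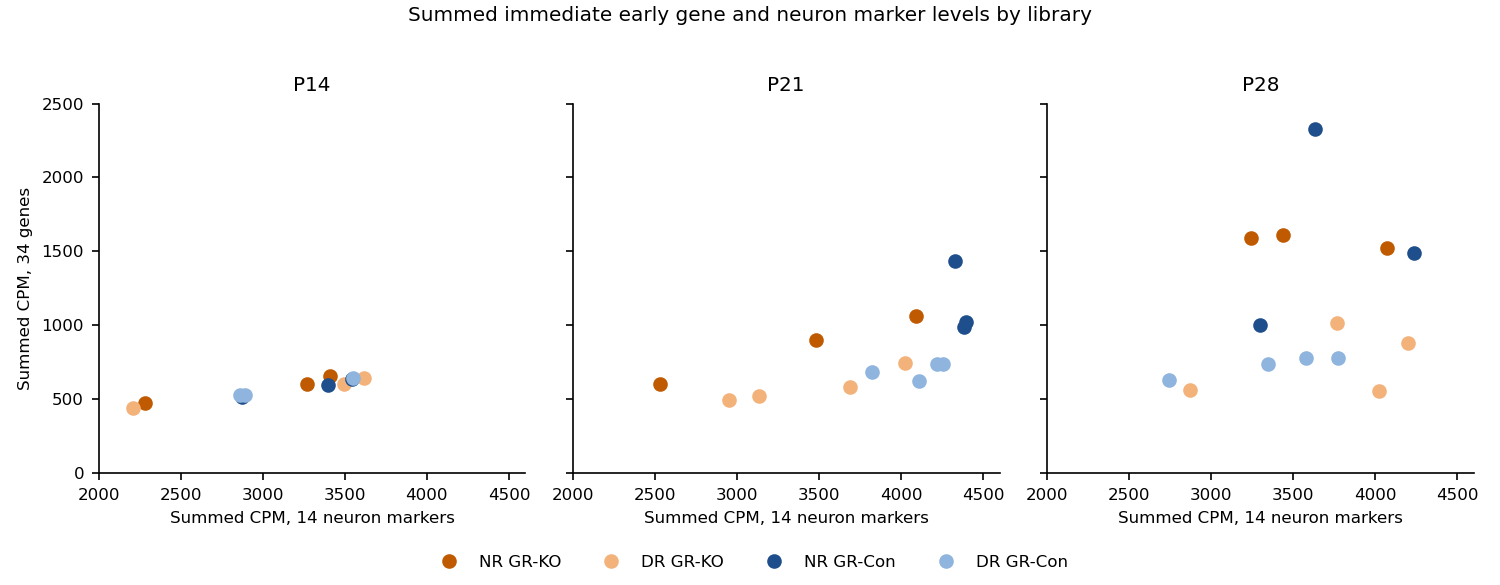
Summed CPM of the 34 immediate early genes (y axis) against summed CPM of the 14 neuron markers (x axis), each point 1 library, by age and group. At P28 the NR libraries (1001 to 2330 CPM) lie above most DR libraries (557 to 1013 CPM), with neuron sums of 3245 to 4237 CPM in NR and 2744 to 4201 CPM in DR.

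The library with the lowest neuron sum of its group was also the lowest for the 34 members in 7 of the 12 groups. One of these was P21 NR GR-KO, with replicate 1 at 2528 CPM of neuron markers and 600 CPM of the 34. In P21 NR GR-Con the library with the lowest neuron sum (4328 CPM, replicate 3) had instead the highest sum of the 34, 1437 CPM. In P28 NR GR-KO the library lowest for the 34 (1521 CPM, replicate 3) had the highest neuron sum, 4073 CPM. Oligodendrocyte markers had summed levels of 231 to 455 CPM at P14, 688 to 1432 CPM at P21 and 649 to 1280 CPM at P28. None of 10 was called for rearing over both genotypes at P21 or P28, with median log2 fold changes of −0.35 and −0.15. How far changing cell content enters the age comparisons cannot be told apart from age here. Which cells the transcripts of the 34 came from was not tested.

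Other activity-regulated genes also differed by rearing. Of 27 tested genes in a list of other activity-regulated genes, 11 were higher in NR at P28 over both genotypes (against 1.66% of all genes) and 5 at P21 (against 2.73%). There were 0 lower, and the median log2 fold change at P28 was 0.46. The largest at P28 were Gem, a small GTPase that restrains calcium channels, Ccn1, a matrix protein, and Pcsk1, a convertase of neuropeptides. Gem had 41.6, 37.3 and 17.3 CPM in NR GR-KO, against 9.58, 9.91, 10.5 and 6.56 CPM in DR GR-KO, and 15.8, 67.2 and 13.9 CPM in NR GR-Con, against 7.16, 7.43, 9.31 and 11.2 CPM in DR GR-Con (log2 1.85, edgeR adjusted p = 3.76e-06), with no overlap in either genotype. Ccn1 rose by 1.52 (adjusted p = 6.65e-06) and Pcsk1 by 1.10 (adjusted p = 6.1e-06). Pcsk1 was also called at P21 (0.73). Gem (1.64) and Ccn1 (1.48) also passed the test of a larger rearing difference at P28 than at P14, as did Tiparp (0.46).

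The MAPK pathway that many of the DUSP proteins close was represented by 16 feedback and ETS genes. Of these, 3 were higher in NR at P28 (against 1.66% of all genes), Spry1 (0.82, edgeR adjusted p = 0.00259), Spry4 (0.42) and Spry2 (0.37), inhibitors of receptor tyrosine kinase signalling. At P21 4 were higher (against 2.73%), Spry1 (0.59) and Spry4 (0.36) among them. The regulators above the 34, were kinases, CREB with its coactivators, SRF with its partners and MEF2. Of 26 tested, 0 were called at P28 by edgeR, with 7 at an unadjusted p under 0.05. At P21 4 were called in either direction. The share of all genes called higher was 2.73%, and the share called in either direction is not given here. At P21 Mef2d (0.32) and the CREB coactivator Crtc2 (0.33) were higher and Mapk3, which encodes ERK1, was lower (−0.45). The heat shock genes, which respond to cell stress, had 0 of 11 called at P21 and P28 over both genotypes by edgeR, with 2 and 3 at an unadjusted p under 0.05 and a median log2 fold change of 0.17 at P28.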

How the data were processed

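Nuclear RNA of sorted astrocyte nuclei was sequenced in 40 libraries of 12 groups, from 10 ng RNA each (SMARTer Stranded Total RNA-Seq). Per the study's methods, the authors aligned reads with STAR to mm10 and counted them per gene body, introns included, with featureCounts of the Subread package, and the deposited values are these raw counts, not normalised. Whether strand was used in counting is stated in no source read here.

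The table held 25239 genes. Genes with low counts were removed with filterByExpr, leaving 17106, and libraries (17240294 to 49221787 counts) were scaled by TMM (factors 0.882 to 1.07). One model of 12 group means was fitted with edgeR 4.0.16 (estimateDisp, glmQLFit, glmQLFTest, R 4.3.3, limma 3.58.1), and p-values were adjusted by Benjamini-Hochberg over all tested genes in each contrast. Calls needed an adjusted p below 0.05, with a log2 fold change above 0.1 in size for genotype and above 0.3 for age. Intervals are at 95% confidence, and p-values measure the spread between pools of mice. CPM are counts over the scaled library size. Scripts were tested on simulated data.

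The 34 members and the other gene lists were chosen with earlier results of these data known. All members are accounted for, and those called for rearing or in an interaction are given by library or by range, as are Fos, Egr1, Nr4a1, Junb, Arc and Npas4. For genotype and age up to 6 called members, and from other lists up to 3 called genes, with the largest changes are named. Replicate libraries of a group differed by a chi-square per degree of freedom of 7.44 to 147 over 48 pairs, so each was kept as a separate library. Alternatives were DESeq2 1.42.0 (its size factors and its Wald test), no filter, a replicate block, marker scores as covariates, leaving out 3 libraries that stand apart, leaving out the 20 most abundant genes, fitting only the groups compared, and leaving out each library.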

Additional observations from a re-analysis of the deposited data

Results flagged for a closer look

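Within groups of 4 libraries, 6 of 136 pairs of a member and a group had a highest or lowest library far from the others by Dixon's ratio, and chance alone gives about 1 in 20. In P21 DR GR-Con these were Jun in replicate 1 (45.5 CPM), Gadd45g in replicate 1 (11.1 CPM) and Ier2 in replicate 2 (3.58 CPM). In P21 DR GR-KO they were Fos (13.5 CPM) and Dusp4 (5.64 CPM), both in replicate 1. In P28 DR GR-Con it was Klf2 in replicate 2 (2.38 CPM).

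The rearing difference, NR over DR over both genotypes, differed between ages by the edgeR interaction test for 10 members. It was larger at P21 than at P14 for Ptgs2, by 1.88 on the log2 scale. It was larger at P28 than at P14 for Fos (2.00), Fosl2 (1.96), Nr4a3 (1.95), Ptgs2 (1.94), Nr4a1 (1.86), Nptx2 (1.45), Dusp1 (1.19), Bdnf (1.09) and Homer1 (0.71). It was larger at P28 than at P21 for Nr4a2 (1.49) and Bdnf (0.662).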

How the results depend on the processing

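None of the 142 called values of single members changed direction under any alternative that could be fitted. The directions of values not called were not checked. The count of members called for rearing over both genotypes was 22 to 30 at P28 and 12 to 19 at P21 under the other settings, and 25 to 29 and 11 to 17 with 1 library left out.

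With 1 library left out, the rearing counts were 4 to 17 at P28 and 0 to 2 at P21 in GR-KO, and 2 to 24 at P28 and 1 to 6 at P21 in GR-Con. The genotype counts were 0 to 2 (P21 NR), 0 to 4 (P28 NR), 0 to 1 (P21 DR) and 0 to 1 (P28 DR). P21 against P14 gave 5 to 11 in NR GR-KO, 0 to 3 in DR GR-KO, 11 to 16 in NR GR-Con and 1 to 5 in DR GR-Con, and P28 against P21 gave 1 to 8, 0 to 2, 0 to 11 and 0 to 1 in the same groups. The interaction of rearing and age gave 0 to 1 (P21 against P14), 5 to 18 (P28 against P14) and 0 to 5 (P28 against P21).

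Equal replicate numbers gave no general sign of paired samples: over 56 pairs the deviations had a mean correlation of 0.0218 (−0.185 to 0.303). Whether single libraries were paired cannot be told from these values. With a replicate block within age, rearing counts were 1 in P21 GR-KO, 5 in P21 GR-Con and 8 in P28 GR-Con, the P21 NR genotype count was 1, and the interactions with age, in the order above, gave 0, 5 and 1. No paired analysis was possible for age because the blocks lie within an age.

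With neuron and oligodendrocyte scores as covariates, rearing counts were 7 in P21 GR-KO, 25 in P28 GR-KO and 14 in P21 GR-Con, genotype counts 0 in P21 NR and 2 in P21 DR, and the interactions 10, 16 and 6. P21 against P14 then gave 0 in all 4 groups, where the oligodendrocyte sums did not overlap between the ages. P28 against P21 gave 15 in NR GR-KO, 3 in DR GR-KO, 17 in NR GR-Con and 2 in DR GR-Con. Without the 3 libraries that stand apart (replicate 3 of P14 NR GR-KO and, in P21 GR-Con, DR replicate 2 and NR replicate 1), the counts were 3 for rearing in P21 GR-Con, 0 for genotype in P21 NR and P21 DR, 1 and 2 for P21 against P14 in DR GR-KO and DR GR-Con, and 6 and 0 for the P28 against P14 and P28 against P21 interactions. Without the 20 most abundant genes the P21 against P14 interaction gave 0.

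The DESeq2 Wald test gave 5 for P21 against P14 in DR GR-KO, 1 for P28 against P21 in DR GR-KO and 1 in DR GR-Con, and 4, 16 and 4 for the interactions. Fits of only the groups compared, with fewer libraries for the spread, gave 0 in P28 GR-KO, 19 in P21 GR-Con and 1 in P28 GR-Con for rearing, 1, 0, 0 and 6 for genotype in P14 NR, P21 NR, P28 NR and P21 DR, 12 for P21 against P14 and 4 for P28 against P21 in DR GR-Con, and 5, 2 and 0 for the interactions. The causes of these moves were not tested. Scaling alternatives moved the median of all genes by at most 0.0322.

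Of 142 called values of single members, 57 lost their call when only the groups compared were fitted, 38 with the covariates, 25 without the 3 libraries that stand apart, 5 without the 20 most abundant genes, 2 with no filter, 2 with the DESeq2 Wald test and 0 with its size factors. With the replicate block 29 of the 101 that could be fitted lost it. Low counts limit Atf3, and 3 or 4 pools a group limit single-genotype calls.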

Other observations

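Outside the members, some marker genes were called for rearing over both genotypes, where 1.66% of all genes were called higher at P28 and 2.73% at P21. The pericyte marker Rgs5 was higher in NR at P28 (log2 0.68, edgeR adjusted p = 0.0175), the astrocyte marker Ndrg2 was lower in NR at P28 (−0.28, adjusted p = 0.0233) and the astrocyte marker Acsbg1 was higher in NR at P21 (0.32, adjusted p = 0.00583). The vascular markers, Rgs5 among them, had P28 sums that overlapped in both genotypes. These were 177 to 204 CPM in NR and 170 to 215 CPM in DR of GR-KO, and 173 to 204 CPM in NR and 160 to 204 CPM in DR of GR-Con. Of 14 glucocorticoid-induced genes, 2 were higher in NR at P21 (against 2.73% of all genes), Cdkn1a (0.82, edgeR adjusted p = 0.00639) and Zbtb16 (0.64, adjusted p = 0.0402). At P28 0 were called, with 7 at an unadjusted p under 0.05.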
